A study of Mus musculus with 2 samples.

Results

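The nuclear genes of the mitochondrial respiratory chain and of the mitochondrial ribosome were taken as those whose name on the array begins with Nduf, Cox and a digit, Uqcr, Atp5, Sdha to Sdhd, or Mrpl or Mrps and a digit. The rule used names only and no measured value. It found 167 of 15208 non-control probes and 136 of 11141 genes, of which 81 belong to the respiratory chain with its assembly factors and 55 to the mitochondrial ribosome. All 136 genes could be compared between the arrays, and 164 of the 167 probes were well above background on both.

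Both preparations were isolated Sertoli cells, the somatic nurse cells of the seminiferous tubule, from 3-month-old male Swiss mice, and neither was cultured. The control mice were untreated. The others had received 25 mg/kg busulphan, an alkylating drug that kills dividing germ cells, 1 month earlier. Each group is 1 preparation on 1 single-colour array, the number of mice pooled in it is not given in the labels, and no difference has a replicate check or a p-value.

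The preparations differed in the cell types that their RNA came from. After busulphan, markers fell short of control by 2-fold or more for 9 of 9 spermatid and 8 of 11 spermatocyte genes, with median log2 ratios of -6.16 and -2.84, and exceeded it by 2-fold or more for 10 of 11 Sertoli and 5 of 7 macrophage genes, with medians of 3.53 and 3.24. Summed over each list, the signal relative to the array's 75th percentile went from 492 in control to 41.4 after busulphan for spermatid markers, from 215 to 40.1 for spermatocyte markers, from 11.8 to 129.8 for Sertoli markers and from 1.04 to 5.79 for macrophage markers. These sums are limited by the scanner, since 7 of the 9 spermatid and 2 of the 11 spermatocyte markers were saturated in control and the Sertoli marker Clu was saturated after busulphan at a signal of 68019, so that their ratios are bounds. Of the other lists, only the peritubular one had a common direction. Spermatogonial markers summed to 8.94 and 24.6, but 4 of 7 had ratios below 0, the median was -0.45, and Uchl1 (6211 and 19115) made up most of the sum. Leydig markers summed to 1.04 and 3.08, with 4 of 5 within 2-fold, a median of 0.11 and Star (202 and 2043) as most of the later sum. Erythroid markers summed to 1.67 and 2.74, with Alas2 at 2.56 and the globins Hba-a1 and Hbb-bt at -0.77 and -0.73. Peritubular markers summed to 34.8 and 56.7, with 3 of 4 within 2-fold and all 4 ratios above 0, from 0.34 to 1.19. Their median of 0.72 turned to -0.17 with spike-in scaling. Endothelial markers summed to 1.24 and 1.81, with 3 of 5 within 2-fold. Every marker compared was well above background on both arrays. The labelled cell type therefore described only some of the RNA in the control preparation. The busulphan preparation also gave signal for other cell types. Its sums were 41.4 for spermatid, 40.1 for spermatocyte and 56.7 for peritubular markers, beside 129.8 for Sertoli markers. Such sums do not give the share of each cell type. Fewer cells of a type and less RNA per cell cannot be told apart in such samples, and the part that cell composition has in the values that follow was not tested.

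Oxidative phosphorylation passes electrons from NADH through complex I, or from succinate through complex II, to complex III, then by cytochrome c to complex IV, where oxygen is reduced. Complexes I, III and IV pump protons that drive the ATP synthase. Most subunits are encoded in the nucleus, and the mitochondrial ribosome, itself built from nuclear-encoded proteins, translates the few that mitochondrial DNA encodes. Spermatocytes and spermatids carry their own forms of several of these proteins, and Sertoli cells are known for a strongly glycolytic metabolism that supplies germ cells with lactate.

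Members lay below control more often than above it, but few were far from it. A ratio here is the log2 processed signal after busulphan minus that in control, each relative to the 75th percentile of its array, and a gene counts as higher or lower when it differs at least 2-fold. Of the 136 genes 50 were lower (36.8%) and 11 higher (8.09%), against 29.5% lower and 31.3% higher among all 9440 genes compared. The remaining 75 were within 2-fold. The median ratio was -0.65, a 1.57-fold lower signal, with quartiles of -1.22 and 0.07 and an SD over genes of 1.16, against a median of 0.07 and an SD of 2.10 over all genes. At 4-fold, 10 members were lower (7.35%) and 4 higher (2.94%), against 17.7% and 14.4% of all genes. The shortage of higher members held under every scaling tried, with at most 12.5% of members higher. The surplus of lower members did not: quantile normalization left 17.6% of members lower against 27.2% of all genes, and loess 19.9% against 29.7%. Under each setting tried the member median stayed below the median of all genes, by 0.40 to 0.79 on the log2 scale.

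**Figure D1:**
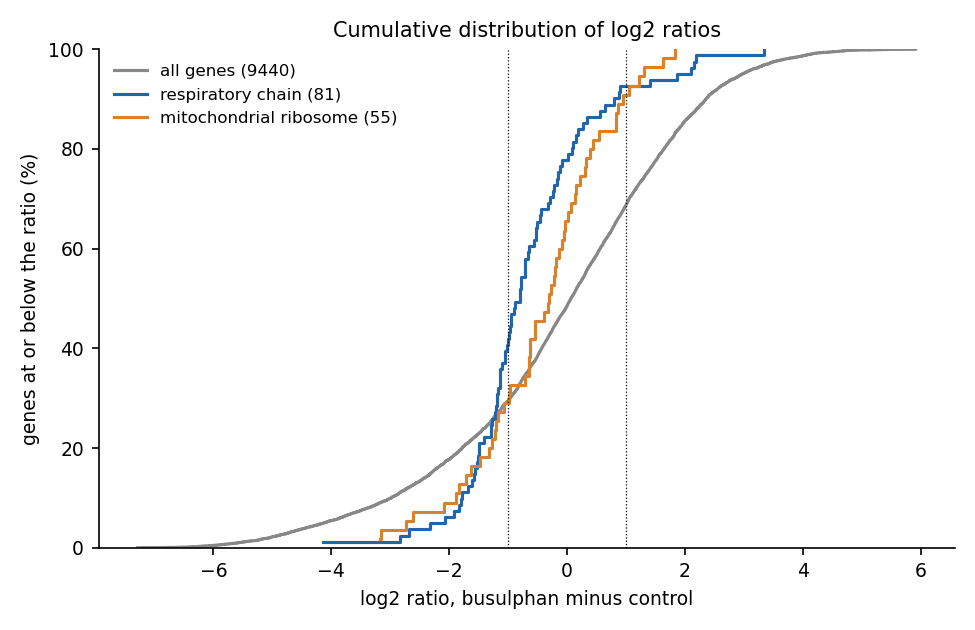
Cumulative share of genes (%) at or below each log2 ratio of busulphan over control, for all 9440 genes compared, the 81 respiratory chain genes and the 55 mitochondrial ribosome genes, with 1 array per group. Dotted lines mark 2-fold; both member curves are steeper than that of all genes, and at the upper line they have 6 and 5 genes left above it.

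**Figure D2:**
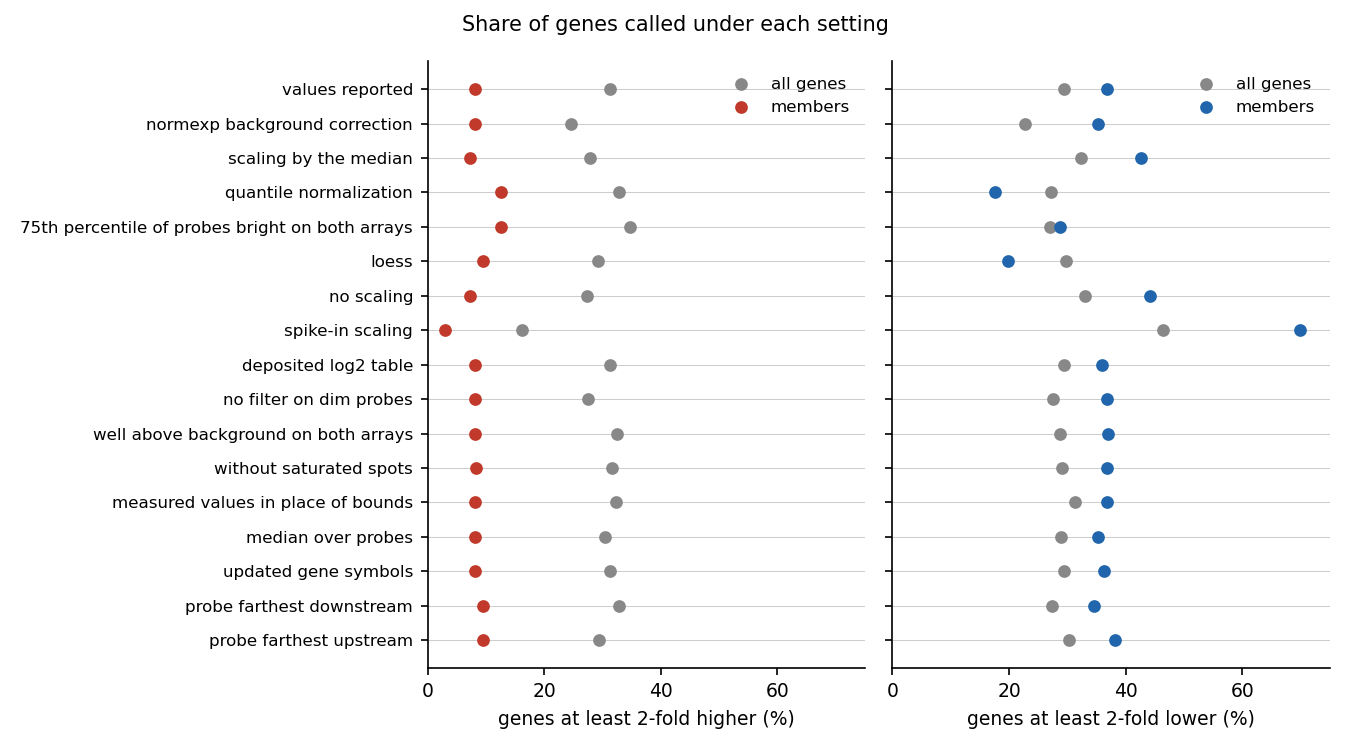
Share (%) of members and of all genes at least 2-fold higher (left) and at least 2-fold lower (right) after busulphan, under the reported processing and each alternative, with 1 array per group. Members lie left of all genes in each row of the left panel, while on the right they lie above all genes as reported (36.8% against 29.5%) and below them with quantile normalization (17.6% against 27.2%) and loess (19.9% against 29.7%).

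As reported, the respiratory chain lay further below control than the mitochondrial ribosome. Its genes were also brighter, with a median control signal of 9688 against 2591. The chain and the ribosome as wholes were not compared under the other settings. Of its 81 genes 34 were lower (42%) and 6 higher, with a median of -0.80, while 16 of the 55 ribosome genes were lower (29.1%, about the 29.5% of all genes) and 5 higher, with a median of -0.31. Within the chain, the medians were -1.03 for complex I subunits, -0.92 for complex III, -0.55 for complex IV subunits, -0.49 for the ATP synthase and -0.39 for complex II. The large ribosomal subunit had a median of -0.54 and the small one -0.09. The subunits of complexes I, III and IV and the large ribosomal subunit kept a negative median under each setting. At the highest these medians were -0.52, -0.26, -0.04 and -0.31 in that order, so complex IV nearly reached control. The median of the ATP synthase turned to 0.11 at the highest among quantile normalization and loess. That of the small ribosomal subunit turned to 0.22 at the highest among quantile normalization and scaling to probes bright on both arrays. That of complex II turned to 0.58 at the highest when the probe farthest downstream or the median over probes was used.

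**Figure D3:**
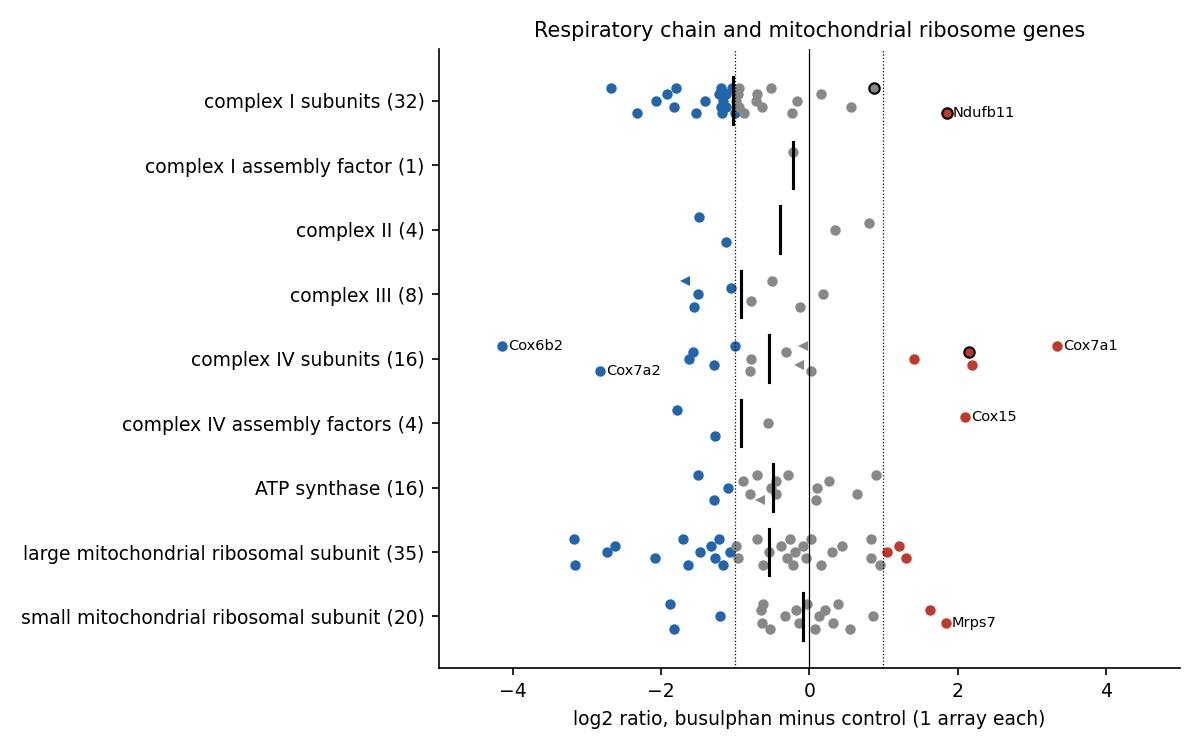
Log2 ratio of busulphan over control for each of the 136 member genes, 1 point per gene, by complex or ribosomal subunit, with the number of genes in brackets and 1 array per group. Blue and red points lie beyond the dotted 2-fold lines, triangles are bounds, black rings mark the 3 X-linked genes and short bars the group medians; complex I lies mainly to the left, with a median of -1.03, and complex IV spreads from -4.15 to 3.34.

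Complex I, the NADH dehydrogenase at the entry of the chain, was the group with the lowest median. Of its 32 subunits 17 were lower (53.1%, against 29.5% of all genes) and 1 was higher (3.12%, against 31.3%). The other 14 were within 2-fold. Ndufv2, an iron-sulfur subunit of the NADH-oxidising module, gave a processed signal of 9688 in control and 1305 after busulphan, a ratio of -2.68 or 6.42-fold lower. Ndufc1, an accessory subunit, went from 18318 to 3167, a ratio of -2.32. Ndufa12, another accessory subunit, went from 32373 to 6692, a ratio of -2.07. These 3 were lower under every setting tried.

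Ndufb11, an X-linked accessory subunit, was the exception in complex I, with a signal of 4213 in control and 13225 after busulphan, a ratio of 1.86 or 3.63-fold higher. The lowest value over the settings was 0.98, with spike-in scaling. The next highest ratios were within 2-fold. Ndufa1, also X-linked, had signals of 4626 and 7344 and a ratio of 0.88, and Ndufa10 had 1416 and 1801 and a ratio of 0.56. Both turned negative with spike-in scaling (-0.01 and -0.33), while Ndufa1 was at least 2-fold higher under quantile normalization, scaling to probes bright on both arrays, loess and with its upstream probe, at up to 1.44. The assembly factor Ndufaf1 gave 1941 and 1444, a ratio of -0.22.

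Complex II, succinate dehydrogenase, is the only complex of the chain that is wholly nuclear-encoded, and its 4 subunits were divided. The catalytic pair that projects into the matrix lay lower: the flavoprotein Sdha gave 3411 in control and 1350 after busulphan, a ratio of -1.13, and the iron-sulfur protein Sdhb gave 4971 and 1536, a ratio of -1.49. The membrane anchors did not. Sdhc gave 1348 and 2039, a ratio of 0.81, and Sdhd gave 3743 and 4115, a ratio of 0.35, and both turned negative with spike-in scaling (-0.08 and -0.54). Sdhb was lower under each setting. A second Sdha probe, farther downstream, gave 527 and 868 and a ratio of 0.93, so the direction of Sdha depends on the probe.

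Complex III, the cytochrome bc1 complex, had 4 of 8 genes lower (50%, against 29.5% of all genes) and none higher (against 31.3%). The Rieske iron-sulfur protein Uqcrfs1 went from 9275 to 2817, a ratio of -1.51, and was lower under each setting. Uqcrc1, a core protein, went from 26173 to 7714, a ratio of -1.55, and both of its probes gave -1.55. Uqcrq was saturated in control at 62367 and gave 16881 after busulphan, and was at least 3.20-fold lower. Uqcrb went from 7074 to 2947, a ratio of -1.05. Uqcrc1 and Uqcrq were within 2-fold under quantile normalization and loess, and Uqcrb under these and scaling to probes bright on both arrays. Uqcr11 (7747 and 7607, ratio 0.18), Uqcrh (41153 and 32680, ratio -0.12) and Uqcrc2 (13190 and 8058, ratio -0.50) were within 2-fold, and the sign of each depended on the scaling, with values down to -0.70 for Uqcr11 and up to 0.73 for Uqcrh and 0.21 for Uqcrc2.

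Complex IV, cytochrome c oxidase, had the widest spread of the chain complexes, an SD over its 16 subunit genes of 1.92. Of these 4 were higher (25%, against 31.3% of all genes) and 6 lower (37.5%, against 29.5%). Subunits without copies among the members lay on the lower side: Cox5a gave 49012 in control and 13804 after busulphan, a ratio of -1.62. Cox7c gave 1673 and 487, a ratio of -1.57, and Cox5b gave 29549 and 10485, a ratio of -1.29. The exception was Cox7b, which is X-linked and gave 536 and 2069, a ratio of 2.16.

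Several complex IV subunits exist in copies that are used in different tissues, and those of Cox6b and Cox7a gave opposite values. Cox6b2, the testis form of a subunit at the dimer interface, had the lowest ratio of all members, with 16116 in control and 787 after busulphan, a ratio of -4.15 or 17.7-fold lower. Its broadly expressed copy Cox6b1 gave 114 and 262, a ratio of 1.41 or 2.66-fold higher, but was within 2-fold under loess and spike-in scaling, at 0.53 at the lowest. The ratio of Cox6b1 stood above that of Cox6b2 by 5.56 on the log2 scale, with a scanner-software error of 0.29, and by 4.80 to 5.56 over the settings. Cox7a1, known as the heart and muscle form, had the highest ratio of all members, with 220 in control and 1923 after busulphan, a ratio of 3.34 or 10.1-fold higher. Cox7a2, known as the liver form and found in most tissues, gave 42380 and 5163, a ratio of -2.83 or 7.10-fold lower. Its second probe, which lies 12 bases away and overlaps the first, gave -2.90. The ratio of Cox7a1 exceeded that of Cox7a2 by 6.17, and by 5.12 to 6.24 over the settings. The related Cox7a2l, a factor in supercomplex assembly, gave 4533 and 2281, a ratio of -0.78.

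The probes behind these values are shown by their first 30 of 60 bases, 5′ to 3′, because near-identical copies could share signal. The files place them on mm9 at chr7:31409575-31411071 on the minus strand for Cox6b1, where the probe spans an intron, chr7:4703488-4703547 on the minus strand for Cox6b2, chr7:30970337-30970948 on the plus strand for Cox7a1, also across an intron, and chr9:79603227-79603286 on the minus strand for Cox7a2.
Cox6b1: aggagtcaggatggctgaagacatcaagac
Cox6b2: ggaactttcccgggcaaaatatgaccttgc
Cox7a1: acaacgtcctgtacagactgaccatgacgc
Cox7a2: aactgagctcttctttggggatcaatattt
Over all 60 bases, the longest run that the paired probes shared was 6 for Cox6b1 and Cox6b2 and 6 for Cox7a1 and Cox7a2. The paired probes lie at different places in their transcripts, so this compares only probe with probe. Whether a probe also binds the transcript of the other copy was not tested.

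Cytochrome c, which carries electrons to complex IV, falls outside the name rule and followed the same division. Cyct, the testis form, gave 11372 in control and 1287 after busulphan, a ratio of -2.94 or 7.65-fold lower. Cycs, the somatic form, gave 3974 and 20485, a ratio of 2.57 or 5.96-fold higher, and its other probes gave 2.91 and 2.85. The ratio of Cycs stood above that of Cyct by 5.35 to 5.79 on the log2 scale over the settings.

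Other copies were not seen to divide in this way, but Cox8b and Cox4i2 were close to background and say little. The lowest signals well above background were 7.50 in control and 6.26 after busulphan. Cox7b2 and Cox8c had no value among the members. Cox8a, the broadly expressed form, gave 3894 and 15377, a ratio of 2.19, and was higher under each setting, while its muscle copy Cox8b gave 7.71 in control and was not well above background after busulphan. Cox6a1 was saturated in control at 65598 and gave 51251 after busulphan, at least 1.11-fold lower, although quantile normalization, scaling to probes bright on both arrays and loess gave no fold, and its muscle copy Cox6a2 gave 56.0 and 49.3, a ratio of 0.03. Cox4i1 went from 42743 to 18470, a ratio that lies at the 2-fold line, and the lung form Cox4i2 gave 13.1 and 9.09, a ratio of -0.32. The signs for Cox6a2 and Cox4i2 turned under some scalings, to -0.86 and 0.09 at the extremes. The 3 genes of the ATP synthase c subunit, which encode the same mature protein, gave -0.28 (Atp5g1), 0.90 (Atp5g2) and 0.65 (Atp5g3). The signs of Atp5g1 and Atp5g3 depended on the scaling, up to 0.15 and down to -0.24. Quantile normalization and loess put Atp5g2 and Atp5g3 at least 2-fold higher, at up to 1.41 and 1.49, as did scaling to probes bright on both arrays for Atp5g2. The difference between Atp5g1 and Atp5g2 stayed between -1.26 and -1.12.

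**Figure D4:**
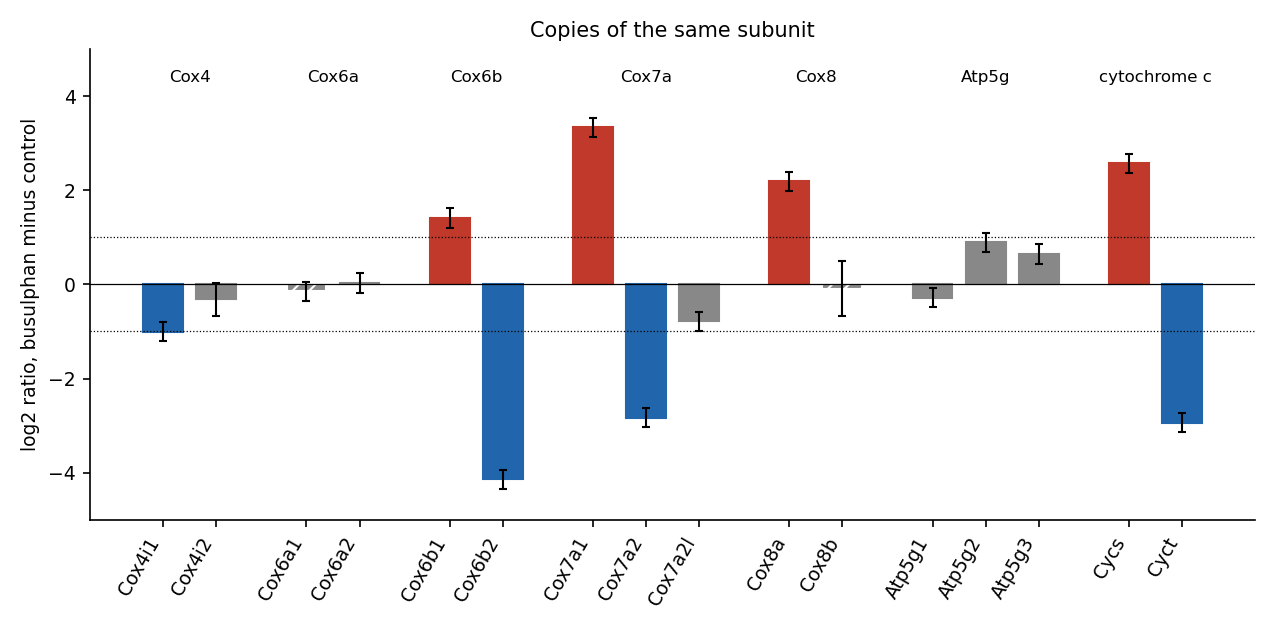
Log2 ratio of busulphan over control for the copies of 5 complex IV subunits, of the ATP synthase c subunit and of cytochrome c, 1 array per group, with the scanner software's error as whiskers and bounds hatched. Red and blue bars lie beyond the dotted 2-fold lines; the testis forms Cox6b2 (-4.15) and Cyct (-2.94) point down and their copies Cox6b1 (1.41) and Cycs (2.57) up, with Cox6b1 within 2-fold under loess and spike-in scaling.

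Of the 4 complex IV assembly factors, Cox11, a copper chaperone, gave 4838 and 1215, a ratio of -1.78, and Cox10, which makes the haem A precursor, gave 160 and 57.5, a ratio of -1.27. Cox15, which acts after Cox10 in the same haem A pathway, gave 133 and 495, a ratio of 2.10, and lay on the other side of control. Cox11 and Cox15 kept their calls under each setting, and Cox10 was within 2-fold with normexp background correction, at -0.75. Cox17, another copper chaperone, had a ratio of -0.56.

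The ATP synthase, which turns the proton gradient into ATP, had 3 of 16 genes lower as reported. This share of 18.8% was below the 29.5% of all genes. None was higher, against 31.3% of all genes, with Atp5g2 and Atp5g3 higher under the scalings named above. Atp5j, coupling factor 6 of the peripheral stalk, gave 34194 and 10459, a ratio of -1.50. Atp5s, also known as coupling factor B, gave 2564 and 908, a ratio of -1.29. Atp5e, the epsilon subunit of the F1 head, gave 28765 and 11648, a ratio of -1.10. Atp5s was lower under each setting that kept it, but with updated gene symbols it was no longer a member. The others were within 2-fold under quantile normalization and loess. The beta subunit Atp5b was saturated in control at 69080 on its brightest probe and gave 37586 after busulphan. It was at least 1.59-fold lower there, but loess gave no fold. Its other probes were not saturated. They gave 20990 and 9112, a ratio of -0.995, and 4141 and 1561, a ratio of -1.20 or 2.30-fold lower. Atp5l, a subunit of the membrane part, had a ratio of 0.27. The 5 genes of the F1 head had a median of -0.45 and the other 11 one of -0.52.

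In the large subunit of the mitochondrial ribosome 13 of 35 genes were lower (37.1%, against 29.5% of all genes). Another 3 were higher (8.57%, against 31.3%) and 19 were within 2-fold. The lower end held Mrpl47, with 5981 in control and 571 after busulphan, a ratio of -3.18 or 9.06-fold lower. Mrpl1 gave 6960 and 672, a ratio of -3.16. Mrpl39 gave 16877 and 2189, a ratio of -2.74. Mrpl47 and Mrpl39 were lower under each setting, and a second Mrpl1 probe gave the opposite direction. At the upper end Mrpl49 gave 604 and 1291, a ratio of 1.30, Mrpl23 gave 2259 and 4534, a ratio of 1.21, and Mrpl27 gave 1068 and 1911, a ratio of 1.05. Spike-in scaling brought them within 2-fold, to 0.42, 0.33 and 0.17, and Mrpl27 was also within 2-fold under scaling by the median, loess and no scaling.

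The small subunit lay closest to control, with 15 of 20 genes within 2-fold. Only 3 were lower (15%, against 29.5% of all genes) and 2 higher (10%, against 31.3%). Mrps18b gave 726 and 170.2, a ratio of -1.88, Mrps31 gave 8423 and 2058, a ratio of -1.82, and Mrps15 gave 3441 and 1285, a ratio of -1.21. Mrps7, a homologue of bacterial S7 that sits in the head of the subunit, gave 784 and 2428, a ratio of 1.84. Mrps6 gave 1878 and 5024, a ratio of 1.63, and Mrps14 gave 713 and 1123, a ratio of 0.87. Mrps18b and Mrps31 kept their calls under each setting, and with spike-in scaling Mrps7, Mrps6 and Mrps14 were at 0.96, 0.75 and -0.02.

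By their median ratios as reported, genes of the same pathways that the name rule leaves out were not shifted down as a group. Their lists were dimmer than the members, whose median control signal was 4966. It was 1087 for other chain genes, 714 for translation and 642 for DNA maintenance and biogenesis. Summed signals relative to the 75th percentile did fall, in that order from 112.7 to 91.3, from 86.9 to 48.8 and from 16.9 to 16.0. Of 19 other respiratory chain genes compared, out of 37 listed, 8 lay at least 2-fold above (42.1%) and 3 below control (15.8%), and the median was 0.31. Besides Cyct, the lower ones were Slirp, which stabilises mitochondrial messenger RNA, at -1.66, and Ecsit, a complex I assembly factor, at -1.11. Higd1a, a factor linked to complex IV, gave 2.14, and Etfa, an electron transfer flavoprotein subunit, gave 1.66. Cyc1, the cytochrome c1 of complex III, gave 3294 and 3352, a ratio of 0.23. None of the 13 genes of mitochondrial DNA had a probe used here.

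Of 24 mitochondrial translation genes compared, out of 38 listed, 6 lay above and 6 below control by that measure (25% each, against 31.3% and 29.5% of all genes), and the median was 0.34. Mtrf1l, a release factor, stood at 2.92 and Wars2, the tryptophanyl-tRNA synthetase, at 2.25. Gatc, of the glutamyl-tRNA amidotransferase, was at -2.58 and Fars2, the phenylalanyl-tRNA synthetase, at -2.32. Of 15 genes compared for mitochondrial DNA maintenance and biogenesis, 5 lay above (33.3%) and 3 below (20%), and the median was 0.62. Ppargc1b, a coactivator of mitochondrial genes, was at 1.99 and the helicase Twnk at 1.56, while Gabpb1, a subunit of the ETS factor GABP, was at -2.21 and the polymerase Polg at -1.94. The medians of all 3 lists turned negative with spike-in scaling, to -0.57, -0.55 and -0.26 in the order given. The 9 housekeeping genes had a median of -0.05, with 3 higher and 3 lower, and a median of -0.93 to 0.97 over the settings.

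The 3 X-linked members, Ndufa1, Ndufb11 and Cox7b, all had ratios above 0, with a median of 1.86, a pattern noticed after the values were seen. They were not apart from their chromosome: of 289 X-linked genes compared 172 were higher (59.5%), with a median of 1.54. On the autosomes 50 of 132 members were lower (37.9%) and 9 higher (6.82%) and their median was -0.66, against 30% lower, 30.3% higher and a median of 0.03 for all 9047 autosomal genes.

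Probes for one gene mostly gave similar ratios, but some pairs overlap and were not set apart. Those of Ndufa11, Cox7a2 and Ndufa8, for example, lie 10, 12 and 17 bases apart. Of 27 member genes with probes that could be placed along the gene, 6 differed by at least 1 on the log2 scale (22.2%), against 40.5% of 2617 genes over the whole array. In 5 of the 6, Mrpl1, Ndufb8, Mrpl41, Sdha and Atp5s, the probe farther downstream gave the higher ratio, as did 818 of the 1060 such genes over the whole array (77.2%), so this direction is not particular to the members. For Mrpl1, the bright probe fell by 3.16 and the downstream one, at a signal of 14.1 in control and 35.7 after busulphan, stood at 1.55. Ndufb8, an accessory subunit of complex I, gave 38928 and 8898 on its bright probe, a ratio of -1.92, and 44.3 and 73.3 downstream, a ratio of 0.93. Mrpl41 gave 9289 and 3588, a ratio of -1.16, while its downstream probe was not well above background in control and gave 16.8 after busulphan. Atp5s was lower on both probes, at -1.29 downstream and -3.19 upstream. Mrps5 was the reverse case, with 0.32 downstream and 1.51 upstream. The downstream probes of Mrpl1, Ndufb8 and Mrpl41 were dim, and which transcripts they detect was not tested.

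**Figure D5:**
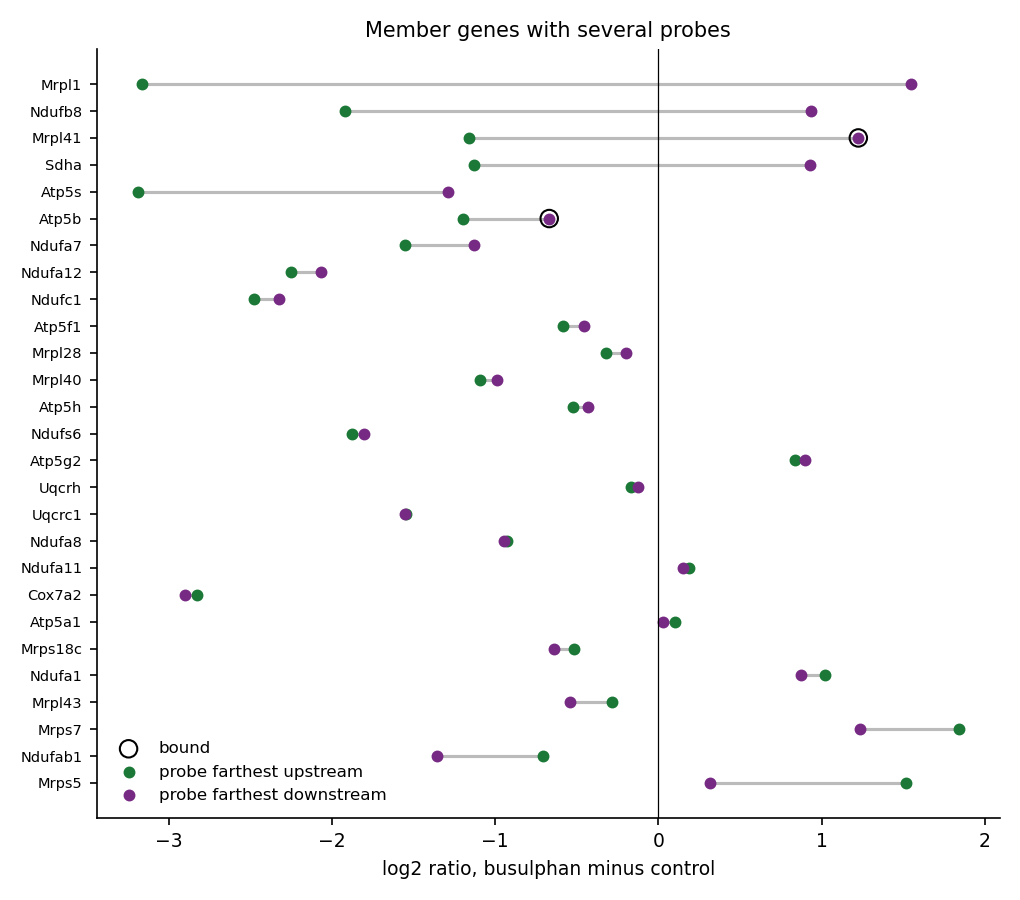
Log2 ratio of busulphan over control for the probe farthest upstream and the probe farthest downstream of each of 27 member genes, 1 array per group, with bounds ringed. Most pairs lie close together; 6 differ by at least 1 on the log2 scale, and Mrpl1 is the widest, at -3.16 upstream and 1.55 downstream.

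Promoters of respiratory chain genes are known for sites of NRF1, of ETS factors such as GABP, and of YY1, and the members' promoters held these letters more often than promoters in general. In the RefSeq promoter table of GRCm38.p6, 118 of 136 members had an entry of 250 bases before to 50 after the start. Searched on both strands, the NRF1 core GCATGCG was in 19 of them (16.1%) against 4.01% of 27025 genes, the ETS motif CCGGAAG in 37 (31.4%) against 9.93%, and the YY1 motif ATGGCGG in 18 (15.3%) against 4.69%. By direction, NRF1 was in 7 of 43 lower, 12 of 64 within 2-fold and 0 of 11 higher members, ETS in 8, 25 and 4, and YY1 in 7, 10 and 1. Members with an ETS match had a median ratio of -0.22 and those without one -0.88. For NRF1 these medians were -0.71 and -0.65, and for YY1 -0.81 and -0.59. All of them pool the complexes and ribosomal subunits, whose own medians differ, and no comparison within a group was made.

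Single windows show how these letters are placed in members from 3 complexes, 2 lower and 1 higher. Each is the 100 bases before a start site in GRCm38.p6, 5′ to 3′ on the gene's strand, with matches in capitals: Sdhb at chr4:140961171-140961270 on the plus strand with the NRF1 core, Atp5j at chr16:84834977-84835076 on the minus strand, the second of its starts in the table, with the YY1 and then the ETS motif, and Cox6b1 at chr7:30626115-30626214 on the minus strand with the ETS motif read in reverse.
Sdhb: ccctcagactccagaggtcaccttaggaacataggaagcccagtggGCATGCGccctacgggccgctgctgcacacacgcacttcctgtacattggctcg
Atp5j: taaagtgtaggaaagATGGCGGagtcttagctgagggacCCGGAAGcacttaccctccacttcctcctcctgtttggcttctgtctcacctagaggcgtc
Cox6b1: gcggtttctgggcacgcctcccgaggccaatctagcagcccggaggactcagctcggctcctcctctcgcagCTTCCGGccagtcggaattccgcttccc
The matches lie 54 to 48 bases before the start in Sdhb, 85 to 79 and 61 to 55 in Atp5j, and 28 to 22 in Cox6b1. Only windows with a match are printed. The same window at the other Atp5j start, and those of Cox6b2, Cox7a1 and Cox7a2, held none. Sdhb and Atp5j were lower after busulphan and Cox6b1 was higher. The whole promoter entries of 300 bases, of which the windows are a part, also held an ETS match in Sdhb and an NRF1 match in Atp5j. Ndufb5 and Mrpl47 start 308 bases apart on opposite strands and so share a promoter region, yet gave ratios of -0.65 and -3.18.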

How the data were processed

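Total RNA of 1 control and 1 busulphan preparation was labelled with Cy3 and hybridised to 1 Agilent array each. Per the file headers, the deposited intensity values are background-subtracted processed signals of Agilent Feature Extraction 11.5.1.1. The log2 table deposited by the authors is log2 of this signal less 10.03 in control and less 9.82 after busulphan, close to each 75th percentile, with column medians of -2.94 and -2.77. The arrays held 15744 spots, 536 of them controls, with 12302 (control) and 12064 (busulphan) probes well above background and 106 and 18 saturated. Both arrays carry the same scan time, and preparation, labelling and array cannot be told apart from the group.

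From each log2 processed signal the 75th percentile of non-control probes was subtracted (signals of 1046 and 905). The 4 probes marked as outliers were dropped, a probe had to be well above background on 1 array, and a gene took its brightest probe. A spot saturated or dim on 1 array gives a bound, taken for a dim spot against the lowest signal well above background on that array. Accessions of 13300 probes, 163 of the 167 member probes among them, were matched to RefSeq genes, and the other 1908 kept the gene name on the array. The software's error of a log2 ratio was 0.20 at the median and covers the spot alone. Coordinates of probes are those of the files, on mm9.

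No test was possible with a single array in each group, and a gene was called at 2-fold, a rule of size. Genes named were the 3 highest and 3 lowest of each group, those opposite to their group, bounds, genes whose probes disagree and copies of a subunit, and in other lists the 2 highest and 2 lowest with Cycs and Cyct. Cyc1, Etfa, Ecsit, Cox7c, Cox5b, Mrpl41 and Ndufb5 and the promoters printed were chosen after their values were seen. One result on complex I is not reported here. The members and lists were chosen with earlier results of these data known. Python 3.11.15 with pandas 2.3.3 and R 4.3.3 with limma 3.58.1 (normexp, quantile, loess) were used, and the counting was tested on simulated data. The changes put into these data were well beyond 2-fold, with noise below the software's error and no bounds. Changes near 2-fold and bounds were therefore not covered. Alternatives covered scaling, filters, bounds, thresholds and the probe used.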

Additional observations from a re-analysis of the deposited data

How the results depend on the processing

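Each group is 1 array, so the replicate spread is unknown, and no library could be left out. No paired analysis was possible because each group has 1 sample. The members' spots were bright, with a median signal after busulphan of 2595 against 350 over all genes, and the quantile and loess settings, which depend on brightness, moved them most besides the spike-ins. Against 11 members higher and 50 lower, quantile normalization gave 17 and 24, scaling by probes bright on both arrays 17 and 39, loess 13 and 27, and spike-in scaling 4 and 95. A 1.5-fold threshold gave 19 higher and 72 lower and a 4-fold one 4 higher and 10 lower. The median moved from -0.65 to -0.29 with quantile normalization, -0.39 with loess, -0.86 without scaling and -1.53 with spike-in scaling, while that of all genes moved to 0.18, 0.01, -0.14 and -0.81. The remaining 42 comparisons of these counts and this median moved by less than 1.5 times or less than the software error. With the probe farthest downstream, a choice made after seeing the data like the upstream probe, updated symbols and autosomes alone, Mrpl1 turned to 1.55, Ndufb8 to 0.93 and Sdha to 0.93. Of the other values for single genes and groups 869 moved by less than the software error and 242 by more. The cause was not tested.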
